A study of Mus musculus with 721 samples.

Results

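The primitive endoderm (PrE) of the E4.5 mouse embryo and the visceral endoderm (VE) of the E6.5 embryo were compared, as 132 of the 721 deposited single-cell libraries. A cell of E4.5 was taken as PrE, and selected on nothing else, where its mean log2(CPM + 1) over Dab2, Lama1, Lamb1, Lamc1, Cubn and Amn lay above that over Sox2, Fgf4, Dnmt3b, Dnmt3l and Dppa4, where CPM is the count scaled to a common library total. This chose 79 of 105 E4.5 cells, from 5 embryos. A cell titled E6.5 or E6.75 was taken as VE where its mean over Apoa1, Ttr, Cubn, Dab2, Amn and Apoc2 lay above that over Pou5f1, Tdgf1 and Dnmt3b, which chose 53 of 250 cells, from 13 embryos as titled. All embryos were wild-type and of the strain C57Bl/6Babr, with no treatment named. The E4.5 cells came from inner cell masses freed of trophectoderm by immunosurgery. The E6.5 cells came from the embryonic portion of embryos staged as early streak, after extra-embryonic tissue had been cut away. No label gives the region of the VE cells within the embryo. Polyadenylated RNA was amplified cell by cell with the SMART-seq2 form of G&T-seq.

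The PrE is the epithelium that forms on the blastocoel face of the inner cell mass, and its descendants line the yolk sac cavities. Where it covers the egg cylinder it becomes VE, an absorptive layer that takes up maternal protein through megalin and cubilin and secretes apolipoproteins and plasma proteins before the liver exists. The other derivative, parietal endoderm, lays down a thick basement membrane, and a patch of VE at the anterior side secretes antagonists of Nodal and Wnt.

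Counts were summed per embryo over at least 3 cells, because the cells of an embryo are not independent. The 5 PrE sums held 9 to 27 cells and 4589551 to 31919578 counts. The 10 VE sums held 48 cells, 3 to 10 each, and 1430165 to 9496422 counts, and 5 further VE cells from 3 embryos were left out of the sums. Embryos are named here by plate and embryo number as titled. The titles of 14 VE cells carry no plate name, and whether their embryo numbers mark embryos separate from the others is not certain. Of the wells, 31 PrE wells and 5 VE wells were titled as holding more than a single cell. Stage cannot be told apart from dissection. Plate names P1 and P2 occur at both stages, but whether a shared name marks the same plate is not certain. In sums of cells, fewer expressing cells and less RNA per cell cannot be told apart either, so shares of cells are given beside the main results.

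The E4.5 choice was sharp and the E6.5 choice was not. The 3 PrE cells nearest the line had margins of 0.80, 1.36 and 1.39 on the log2 scale and the 3 cells just outside had -2.10, -2.91 and -3.38. At E6.5 the nearest cells inside had margins of 0.077, 0.21 and 0.47 and the nearest outside -0.085, -0.12 and -0.12, with 9 VE cells and 22 other cells within 1 of the line. The VE embryo P1-e3 stood apart. Its 3 cells had margins of 0.077 to 0.63, and its sum held 0.685 CPM of Gata4, none of Gata6 and 41.1 CPM of Krt8, beside 349 CPM of the epiblast gene Pou5f1. In VE embryo P3-e9 a single cell gave 67.8% of the counts, and the sum held no Foxa2 and 2476 CPM of Dnmt3b, but also 7633 CPM of Ttr. List counts that changed most without these embryos are given both ways.

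The genes of the choice are given as description only, since the choice set part of their split between the stages. Apoa1, the main protein of high density lipoprotein, lay at 0 to 2.45 CPM in the PrE sums and 727 to 6547 CPM in the VE sums. Ttr, the thyroid hormone carrier, was already present at E4.5, at 34.1 to 93.5 CPM against 897 to 7633 CPM. The laminin chains Lama1, Lamb1 and Lamc1 ran the other way, with PrE means of 935, 1618 and 1299 CPM and VE means of 23.1, 136 and 67.6 CPM. Cubn, which encodes the endocytic receptor cubilin and was used at both stages, had means of 2689 CPM in PrE and 839 CPM in VE, and the adaptor Dab2, also used at both, had 1753 and 1301 CPM. Laminins were used only at E4.5 and Apoa1, Ttr and Apoc2 only at E6.5, and the part of this in genes expressed together with them was not tested.

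Of the 10616 genes tested, 715 (6.74%) differed between PrE and VE by a log2 change over 1 with an adjusted p of 0.05 or less. The test was the quasi-likelihood test of edgeR, adjusted after Benjamini and Hochberg over all genes tested, and it stands behind every edgeR adjusted p below. 397 genes (3.74%) were higher in VE and 318 (3.00%) lower, 8 of the 715 being genes of the choice. At an unadjusted p under 0.05 there were 2100. In 576 genes (5.43%) the PrE and VE sums did not overlap, 162 with VE above and 414 with VE below. Leaving out VE embryo P1-e3 gave 711 genes, 383 of them higher, and 653 without overlap. With plate name as a term 1027 genes passed, 555 of them shared with the 715, and the balance turned to 473 higher and 554 lower. Leaving out any of 4 PrE embryos took the count down by over 1.5 times, to 454 without P1-e1, 455 without P1-e2, 448 without P2-e3 and 458 without P2-e4. The median gene moved by 0.06 on the log2 scale, and fold changes below are on that scale, VE over PrE, with standard errors.

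**Figure D1:**
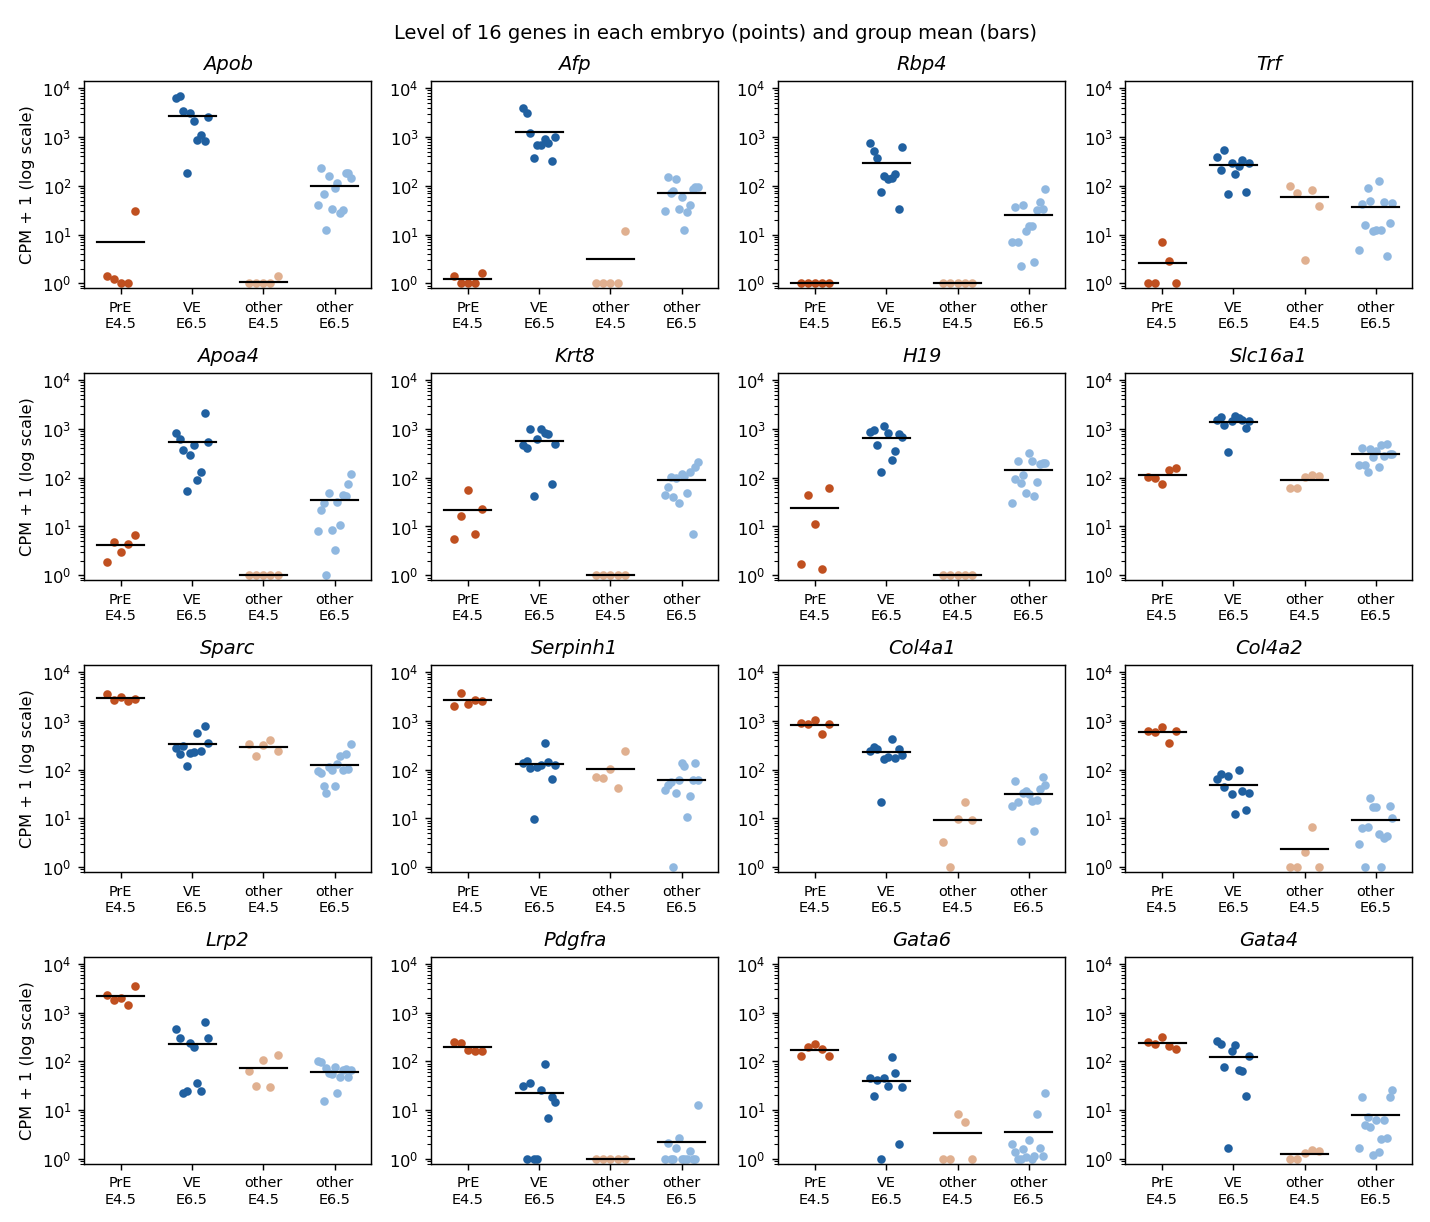
Level of 16 genes in each embryo, in CPM + 1 on a log axis, for PrE at E4.5, VE at E6.5 and the other cells of both stages. Points are embryo sums and bars are means. Apob, Afp, Rbp4 and Trf stand at or near 0 in PrE and high in VE, while Sparc, Serpinh1, Col4a1, Col4a2 and Lrp2 fall from PrE to VE.

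Genes for secreted plasma proteins were among the largest rises. Counts for this and the other lists cover the members tested, since genes too low in both groups were filtered out. Of the 12 tested genes of the plasma protein list of 25, 7 rose and none fell, with a median change of 5.96 against 0.06 over all genes. Only Cpn1 had a negative change, with means of 125 CPM in PrE and 16.6 CPM in VE. It did not pass (-2.92 ± 1.08, edgeR adjusted p = 0.121). Of the 12, 11 reached the level of the count filter, 1.79 CPM in 5 sums, in VE and not in PrE, so that they were tested only because they were high in VE, and the count and the median are a description of those members. Ahsg, fetuin, with means of 6.53 CPM in PrE and 0 in VE, was among the 13 left untested. The same held for 9 of 16 tested imprinted genes, 6 of 20 epithelial, 6 of 19 apolipoprotein, 5 of 11 anterior and 4 of 6 streak genes below. It held too for 4 of 14 ligand, 5 of 30 receptor and 3 of 8 retinol genes. So it did for 2 of 15 endoderm factors, 2 of 15 uptake, 2 of 18 glucose and 2 of 4 trophoblast genes. Of 11 DNA methylation genes it held for 2, and the lysosomal, basement membrane, parietal endoderm, iron, epiblast and blood lists each had 1. The reverse, that level in PrE and not in VE, held for 5 of 13 parietal endoderm and 2 of 20 basement membrane genes. Each of the ligand, receptor, retinol and apolipoprotein lists had 2 such genes. The dissociation stress list had 3, and the uptake, glucose, DNA methylation and streak lists 1 each. Afp, alpha-fetoprotein, was at 0.43, 0, 0, 0 and 0.63 CPM in PrE embryos P1-e1, P1-e2, P2-e3, P2-e4 and P2-e5, and from 325 through a median of 835 to 3911 CPM in VE. The groups did not overlap, and the change was 12.32 ± 1.15 (n = 5 and 10, edgeR adjusted p = 7.33e-06). No PrE cell of 79 passed 100 CPM of Afp, whereas 44 of 53 VE cells did. Were the 79 cells independent, a share of up to 3.80% would be allowed. They come from 5 embryos, so the limit may be wider.

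Rbp4, the plasma carrier of retinol, had no count in any PrE cell and 32.9, 168 and 770 CPM as the lowest, median and highest VE sums. Set against 3 counts over the PrE group, this was at least 7160-fold higher in VE (edgeR adjusted p = 1.41e-05). The iron carrier Trf lay at 0, 0, 6.15, 1.82 and 0 CPM in the PrE embryos in the same order and 67.1 to 552 CPM in VE, a change of 7.39 ± 1.16 (n = 5 and 10, edgeR adjusted p = 0.000589). Coagulation genes were among the risers. Fgb, the beta chain of fibrinogen, had means of 2.82 ± 3.61 CPM (SD, n = 5) and 124 ± 62.7 CPM (SD, n = 10), and Fgg, the gamma chain, was at least 715-fold higher. Factor V, F5, rose by 6.46 ± 1.34 (n = 5 and 10, edgeR adjusted p = 0.00515), and Spp2, a secreted bone protein, by 9.62 ± 1.72 (edgeR adjusted p = 0.00185). The alpha chain Fga and prothrombin F2 did not pass, with VE means of 3.89 and 7.41 CPM.

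Short stretches upstream of 3 of these liver-type genes are shown because promoters of this class are known for TATA boxes and for short motifs shared among liver genes. The sequences are RefSeq on GRCm38.p6, up to 250 bases before the annotated start and printed along the strand of the gene, with capitals marking GTTAAT, one such motif (ATTAAC where it lies on the opposite strand), and TATAAA. The windows lie at chr5:90490464-90490713 on the plus strand for Afp, chr3:83049864-83050113 on the minus strand for Fgb, and chr12:7977427-7977647 on the plus strand for Apob, where 29 bases of an exon were left out.
Afp: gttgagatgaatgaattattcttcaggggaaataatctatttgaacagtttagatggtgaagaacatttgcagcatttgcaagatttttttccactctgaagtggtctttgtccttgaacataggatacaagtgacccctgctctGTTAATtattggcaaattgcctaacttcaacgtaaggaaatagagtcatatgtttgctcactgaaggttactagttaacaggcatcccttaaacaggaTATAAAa
Fgb: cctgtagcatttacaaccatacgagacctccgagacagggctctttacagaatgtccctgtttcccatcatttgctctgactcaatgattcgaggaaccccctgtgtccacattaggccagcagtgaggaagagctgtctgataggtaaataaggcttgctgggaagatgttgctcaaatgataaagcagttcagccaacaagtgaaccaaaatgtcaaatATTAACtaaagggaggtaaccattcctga
Apob: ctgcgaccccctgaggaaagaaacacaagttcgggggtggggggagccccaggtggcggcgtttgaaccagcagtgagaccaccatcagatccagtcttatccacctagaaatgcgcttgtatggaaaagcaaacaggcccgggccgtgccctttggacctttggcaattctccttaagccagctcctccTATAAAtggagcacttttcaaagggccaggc

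Neither motif is rare. GTTAAT, searched on both strands, stood in 6.43% of 32851 RefSeq windows and TATAAA in 12.4%, and the motifs can share at most a single end base. Of 109 named genes 76 matched a window. Of 7377 tested genes with a window, 283 rose and 209 fell. Of the 341 with GTTAAT 23 rose and 10 fell, and of the 525 with TATAAA 21 rose and 18 fell. A match is a description of the letters and says nothing of binding.

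Apolipoproteins and the genes that load lipid onto them moved in both directions. Of 19 tested, 6 rose and 3 fell, with a median change of 1.47. Apob, the structural protein of lipoprotein particles, stood at 0.43, 0.21, 0, 0 and 29.6 CPM in the PrE embryos and at 184, 2338 and 6897 CPM as the lowest, median and highest VE sums. Only PrE embryo P2-e5 held more than a trace, and the change was 8.76 ± 1.61 (n = 5 and 10, edgeR adjusted p = 0.00218). Above 100 CPM were 1 of 79 PrE cells and 49 of 53 VE cells. Apoa4 rose by 7.42 ± 0.95 (edgeR adjusted p = 8.22e-05), from 0.87 to 5.79 CPM in PrE to 53.4 to 2142 CPM in VE. Apom, a carrier of sphingosine 1-phosphate, was well expressed in PrE, at 59.2 to 315 CPM, and still rose by 3.20 ± 0.47 (edgeR adjusted p = 0.000282). Mttp, which transfers lipid to nascent Apob particles, rose from 20.9 ± 20.6 CPM (SD, n = 5) to 150 ± 91.6 CPM (SD, n = 10), with overlap and a call lost in 5 of 28 alternative analyses. Mogat2, an enzyme of triglyceride synthesis, rose by 1.47 ± 0.40 (edgeR adjusted p = 0.0313).

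Apoe and Apoc1 were abundant at both stages and did not pass. Apoe had means of 2019 ± 973 CPM (SD, n = 5) and 4546 ± 1866 CPM (SD, n = 10), and Apoc1 205 ± 70.0 and 219 ± 393 CPM, the VE mean resting on 1331 CPM in embryo P3-e9. The members that fell were Fabp3, Pltp and Lipg. Fabp3, a fatty acid carrier of muscle and heart, dropped from 842, 307, 825, 641 and 1623 CPM in the PrE embryos to 0, 9.33 and 149 CPM as the lowest, median and highest VE sums, a change of -4.23 ± 0.96 (n = 5 and 10, edgeR adjusted p = 0.0099). Pltp, which moves phospholipid between particles, fell by 4.59 on the log2 scale and did not overlap. Lipg, endothelial lipase, fell from a PrE mean of 14.3 CPM, a call lost in 15 of the 26 alternative analyses that tested it.

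The basement membrane genes moved only downward among those that passed. Of 20 tested, 9 fell and none rose, with a median of -1.85, where 3.00% of all genes tested fell. The summed level of the list went from 9840 to 12410 CPM in PrE to 805 to 3269 CPM in VE. The laminins of the choice are not in this count. Sparc, a collagen-binding matrix protein, stood at 3559, 2656, 3017, 2518 and 2783 CPM in the PrE embryos and at 118, 256 and 772 CPM as the lowest, median and highest VE sums. No VE embryo reached the lowest PrE embryo, and the change was -3.15 ± 0.33 (n = 5 and 10, edgeR adjusted p = 1.4e-05). The type IV collagen chains Col4a1 and Col4a2, whose genes share a promoter, had PrE means of 830 ± 189 and 588 ± 145 CPM (SD, n = 5) and VE means of 222 ± 106 and 47.6 ± 28.8 CPM (SD, n = 10). The changes were -1.90 ± 0.39 for Col4a1 and -3.63 ± 0.41 for Col4a2 (edgeR adjusted p = 0.00454 and 2.29e-05). Perlecan, Hspg2, fell by 5.52 on the log2 scale, from 380 to 1038 CPM in PrE to 0 to 59.2 CPM in VE.

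Of 6 tested genes for the maturation of collagen 5 fell, and the lysyl hydroxylase Plod1 did not pass, at -2.04 ± 0.99 (edgeR adjusted p = 0.259). Serpinh1, the collagen chaperone HSP47, was at 1979, 3731, 2174, 2712 and 2519 CPM in PrE and at 8.90, 122 and 343 CPM as the lowest, median and highest VE sums, a change of -4.33 ± 0.45 (n = 5 and 10, edgeR adjusted p = 1.4e-05). The prolyl 4-hydroxylase subunits differed from each other in level. P4ha2 went from 144, 147, 169, 149 and 45.1 CPM to at most 4.32 CPM, and no VE cell passed 100 CPM against 42 of 79 PrE cells. P4ha1 changed by -1.80 ± 0.48 on the log2 scale (edgeR adjusted p = 0.0273), a call lost in 6 of 28 alternatives, and P4hb, which is also protein disulfide isomerase, by -2.53 ± 0.29 (edgeR adjusted p = 2.15e-05). Plod2, another lysyl hydroxylase, fell by 3.04. Of the members that did not pass, Nid2 had 60.7 and 149 CPM, Lama5 54.5 and 41.9 CPM, and Agrn 144 and 98.3 CPM in PrE and VE.

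Genes known from parietal endoderm overlapped with that list. Of 13 tested, 7 fell and none rose, with a median of -2.31, and 3 of the 7, Col4a1, Col4a2 and Sparc, are in both lists. The others were Pdgfra, given below, Pth1r, Srgn and Htra1. Of the 13, 5 reached the level of the count filter in PrE and not in VE. Those 5 were tested only because they were high in PrE, so the count and the median are a description. Pth1r, the receptor of parathyroid hormone related peptide, fell from 142 to 221 CPM to 0 to 50.02 CPM, and Htra1, a secreted protease, from 250 to 412 CPM to 0 to 89.0 CPM. Srgn, the core of a secretory granule proteoglycan, fell by 2.31 ± 0.50 (edgeR adjusted p = 0.00777). Plat, Snai1 and Stra6 had PrE means of only 14.6, 12.2 and 19.2 CPM and did not pass.

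**Figure D2:**
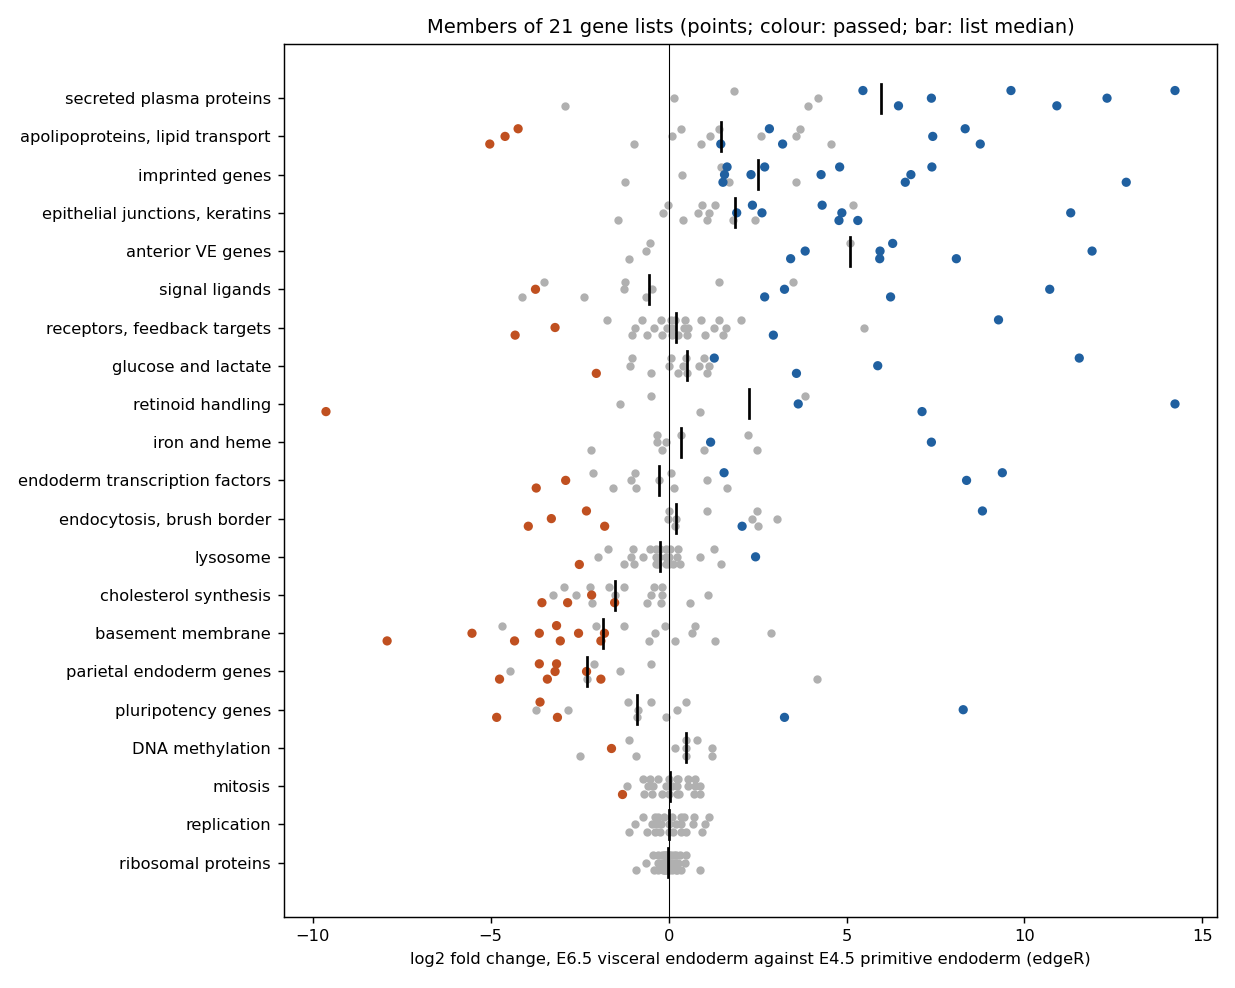
Log2 change from E4.5 PrE to E6.5 VE of each tested member of 21 gene lists, without the genes of the choice. Points past the test are colored, and bars are list medians. Plasma protein, anterior VE, imprinted and epithelial genes lie to the side of VE, and basement membrane, parietal endoderm and cholesterol synthesis genes to the side of PrE.

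The endocytic machinery did not move as a block. Of 15 tested genes of uptake and the brush border, 2 rose and 4 fell, with a median of 0.20, and without P1-e3 and P3-e9, 4 rose and 4 fell. Lrp2, the receptor megalin, was at 2243, 1838, 1985, 1404 and 3496 CPM in the PrE embryos and at 21.9, 218 and 645 CPM as the lowest, median and highest VE sums, a change of -3.29 ± 0.65 (n = 5 and 10, edgeR adjusted p = 0.00373). All 79 PrE cells passed 100 CPM and 23 of 53 VE cells did. Lrpap1, the chaperone of that receptor family, fell by 1.80 ± 0.35 (edgeR adjusted p = 0.00317). Folr1, the folate receptor, stood at 325 CPM in PrE and 325 CPM in VE, and the clathrin heavy chain Cltc at 657 and 756 CPM, and neither passed.

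Of the genes of microvilli and the brush border, Vil1 and Ezr rose. Vil1, villin, was at most 0.24 CPM in PrE and 1.37 to 127 CPM in VE, a change of 8.82 ± 1.33 (n = 5 and 10, edgeR adjusted p = 0.000379), and Ezr, ezrin, rose by 2.07 ± 0.43 (edgeR adjusted p = 0.005). The scaffold Slc9a3r1 had 266 and 264 CPM, and the scaffold Pdzk1 and the protocadherin Cdhr2 had changes of 2.35 ± 0.76 and 3.04 ± 2.03, and none of these passed (edgeR adjusted p = 0.996, 0.0708 and 0.449). The unconventional myosin Myo7a and the peptidase Mme fell, calls lost in 16 and 15 of 28 alternatives. Of 29 lysosomal genes, 1 rose and 1 fell, with a median of -0.24, and without P1-e3 and P3-e9, 3 rose and 3 fell. The riser was Ctsh, a cathepsin, with 94.8 ± 82.8 CPM (SD, n = 5) and 516 ± 292 CPM (SD, n = 10), and the faller Asah1, acid ceramidase, with 345 ± 83.3 and 60.6 ± 49.2 CPM.

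Most transcription factors that define endoderm did not pass. Of 15 tested, 3 rose and 2 fell, with a median of -0.26. Foxa1 and Nr2f2, 2 of the 3 risers, reached the level of the count filter in VE and not in PrE. They were tested only because they were high in VE, so the count of risers is a description. Gata4 stood at 251, 230, 321, 205 and 179 CPM in the PrE embryos and at 0.685, 103 and 259 CPM as the lowest, median and highest VE sums, which did not pass (edgeR adjusted p = 0.44). Gata6 did not overlap, with 127, 191, 221, 175 and 130 CPM against 0, 35.1 and 123 CPM, and also missed the threshold (-2.12 ± 0.71, n = 5 and 10, edgeR adjusted p = 0.0819). Above 100 CPM were 67 of 79 PrE and 22 of 53 VE cells for Gata4, and 56 and 8 for Gata6. Of the other E6.5 cells, 1 of 197 passed that level for each gene.

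The markers Pdgfra and Sox17 were the lineage genes given for these cells. Pdgfra, the PDGF receptor by which PrE cells are often recognized, stood at 245, 240, 172, 161 and 165 CPM in PrE and at 0, 15.7 and 88.1 CPM as the lowest, median and highest VE sums. The change of -3.19 ± 0.96 passed narrowly (n = 5 and 10, edgeR adjusted p = 0.0495), and the call was lost in 16 of 28 alternatives. Its ligand Pdgfa fell as well, from 73.7 ± 35.9 CPM (SD, n = 5) to 5.59 ± 7.46 CPM (SD, n = 10), a call lost in 5 of 28. Sox17 had 98.5, 162, 166, 106 and 49.6 CPM in PrE and 0, 34.6 and 254 CPM in VE, and did not pass (edgeR adjusted p = 0.606). Sox7, its close relative, fell by 3.72 ± 0.90 (edgeR adjusted p = 0.0147), from 131 to 236 CPM to 0 to 32.2 CPM. Foxa1 had no count in PrE and was at least 248-fold higher in VE at a mean of only 10.3 CPM, while Foxa2 and Hnf4a did not pass, with PrE means of 33.8 and 48.7 CPM and VE means of 71.4 and 54.1 CPM. The orphan receptor gene Nr2f2 rose from near 0 to a mean of 11.3 CPM, and Eomes rose by 1.56 ± 0.46, a call lost in 18 of 28 alternatives. Without P1-e3 and P3-e9, 3 of the factors rose and 4 fell.

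Anterior VE genes were among the largest rises, with wide spread between embryos. Of 11 tested, 7 rose and none fell, with a median of 5.10. Cer1, which encodes a secreted antagonist of Nodal and BMP, was absent from all PrE embryos but P1-e2, at 0.63 CPM, and lay at 1.19, 117 and 955 CPM as the lowest, median and highest VE sums, a change of 11.90 ± 1.92 (n = 5 and 10, edgeR adjusted p = 0.000794). The VE embryos P3-e7, P3-e8 and P1-e2 held 955, 692 and 552 CPM of Cer1, and the sums titled E6.75 held 8.87 and 16.3 CPM. Cells above 100 CPM were 8 of 10 in P3-e8, 3 of 3 in P3-e7 and none of the 9 titled E6.75, and 22 of 53 in all. Among other E6.5 cells 24 of 197 passed that level. Lhx1 rose from 2.10 to 8.16 CPM to 11.9 to 1235 CPM, and Otx2 by 5.93 ± 1.04 (edgeR adjusted p = 0.00158). The other E6.5 cells had means of 26.1 CPM of Lhx1 and 333 CPM of Otx2, against VE means of 347 and 277 CPM. The Wnt antagonists Sfrp1 and Sfrp5 rose, Sfrp1 with a call lost in 12 of 28 alternatives.

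Of the members of the anterior list that did not pass, Lefty1, Dkk1 and Hhex were present in PrE. Lefty1, another Nodal antagonist, had 351, 108, 108, 131 and 50.7 CPM in the PrE embryos and 0, 21.1 and 244 CPM as the lowest, median and highest VE sums. Dkk1, a Wnt antagonist, had PrE and VE means of 194 and 126 CPM, and the homeobox gene Hhex 61.6 and 42.7 CPM. The homeobox gene Gsc was near 0 in PrE, with 1.07 ± 1.81 CPM (SD, n = 5) and 35.1 ± 51.2 CPM (SD, n = 10) in VE. Nog, a BMP antagonist, had no count in PrE and a VE mean of 3.76 CPM and was too low to be tested. The neighboring gene Lefty2 fell, from 1043, 88.9, 27.2, 102 and 77.3 CPM to at most 5.55 CPM in VE.

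Markers of other cell types moved with these genes. Of 6 tested streak and mesoderm markers, 4 rose (Mixl1, Evx1, Lhx1 and Wnt3, with the call of Evx1 lost in 8 of the 24 alternatives that tested it), and the summed level of the list went from 10.8 to 41.2 CPM in PrE to 33.3 to 2251 CPM in VE, while T, the defining gene of the streak, had a VE mean of 7.90 CPM. Mixl1 reached 756 CPM in VE embryo P1-e2, where Lhx1 was highest, against a mean of 45.5 CPM in the other E6.5 cells. Of 4 epiblast markers outside the choice, Fgf5 and Pou3f1 rose, and the list summed to 973 to 1885 CPM in PrE and 683 to 3783 CPM in VE. Of 4 trophoblast markers, Cdx2 and Eomes rose, with sums of 49.9 to 87.1 and 72.3 to 324 CPM, and the calls were lost in 6 of the 17 alternatives that tested Cdx2 and 18 of 28 for Eomes. Without P1-e3 Cdx2 was too low to be tested and Eomes did not pass edgeR's test, and without P1-e3 and P3-e9 Eomes passed. The methods of the study name a removal of trophoblast cells by Elf5, Wnt7b and Tex19.1 before deposition. Of the 721 deposited cells 4 held more than 1 count of each of these genes, and none of the 79 PrE and 53 VE cells did. Blood and decidua markers summed to at most 14.6 CPM in PrE and at most 89.6 CPM in VE outside embryo P2-e6, which held 819 CPM, and Prl8a2 rose while Pecam1 fell, calls lost in 6 of 25 and 18 of 24 alternatives that tested them. None of 11 genes of dissociation stress passed edgeR's test. Their median change was still -1.86, and none of the 11 had a positive change. Of the 11, 3 reached the level of the count filter in PrE and not in VE. Those 3 were tested only because they were high in PrE, so the median and the signs are a description. In edgeR 6 were lower in VE at an unadjusted p under 0.05, and DESeq2 called 4 lower. The summed levels were 1522 to 2689 CPM in PrE and 1235 to 2589 CPM in VE. The part of other cell types, and of dissociation, in these results was not tested.

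Most of the secreted signals and receptors tested did not pass. Of 14 tested ligands 4 rose and 1 fell, and of 30 receptors and feedback targets 2 rose and 2 fell. Over all genes tested 3.74% rose and 3.00% fell. Of the 14 ligands 4, and of the 30 receptors and targets 5, were tested only because they were high in VE. The counts are therefore a description and are not set against those shares. DESeq2 called 5 of the receptors and targets higher and 1 lower. Wnt3 was at 0.03 CPM in a single PrE embryo and at 1.37, 33.1 and 165 CPM as the lowest, median and highest VE sums, a change of 10.71 ± 1.51 (n = 5 and 10, edgeR adjusted p = 0.000205). Bmp2 rose from 0.42 ± 0.94 CPM (SD, n = 5) to 28.4 ± 25.9 CPM (SD, n = 10), a call lost in 8 of 28 alternatives, and Igf2 by 2.70, a call lost in 17. Fgf3, a ligand outside the list, had 112, 55.5, 93.1, 74.8 and 39.4 CPM in PrE and no count in VE, at least 1216-fold lower. The receptor Fgfr3 fell with it, by 4.31 ± 0.98 (edgeR adjusted p = 0.01), from 68.7 to 146 CPM to 0 to 20.5 CPM. Dusp6, a feedback target of FGF signals, rose by 2.94, with the top of its VE range, 649 CPM, in embryo P3-e9.

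**Figure D3:**
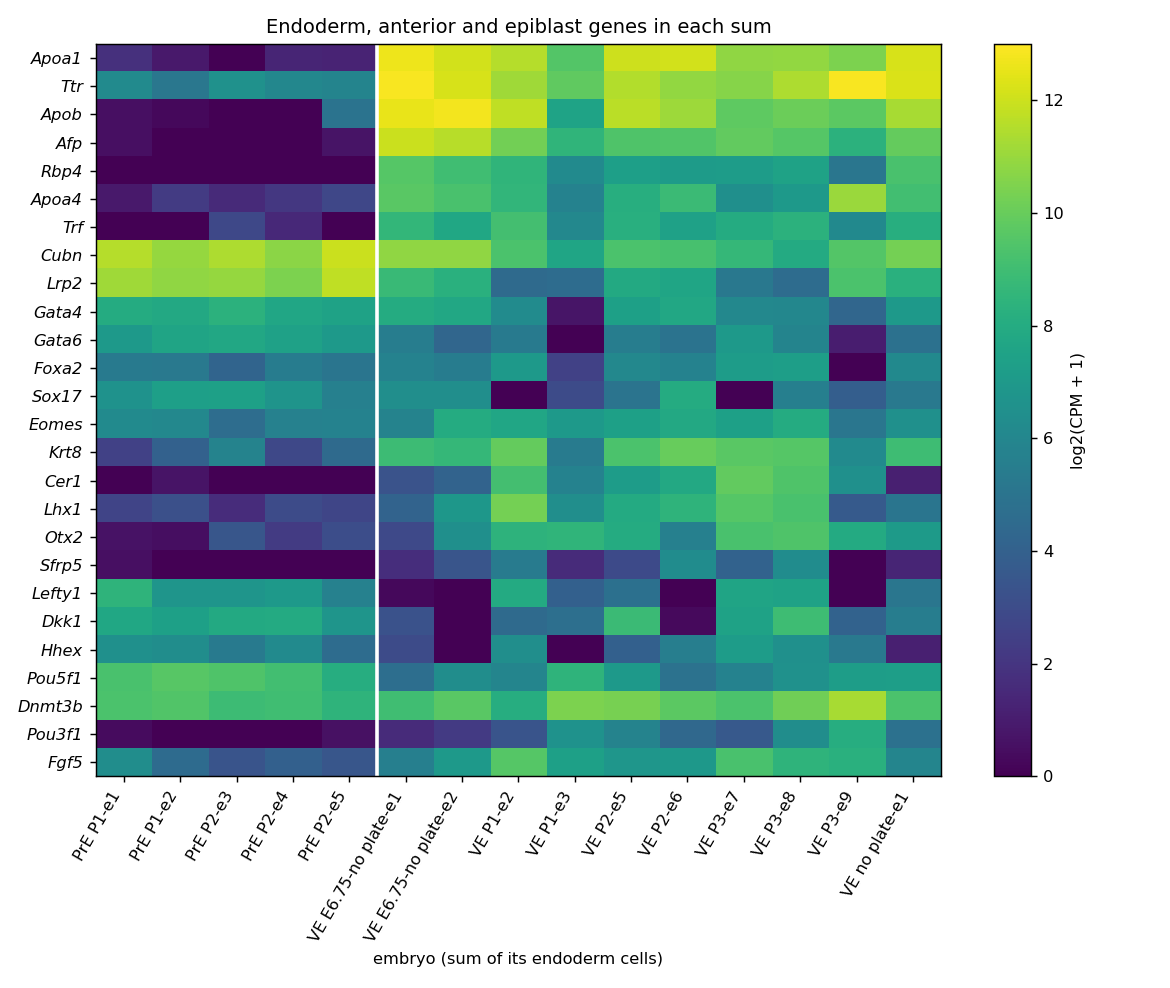
Level of 26 genes in the 5 PrE and 10 VE embryo sums, as log2(CPM + 1). Columns are embryos and rows are genes. VE embryos P1-e3 and P3-e9 are darker, that is lower, than the other VE embryos in Gata4, Gata6 and Krt8, and Cer1 is brightest in P3-e7, P3-e8 and P1-e2.

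Genes of epithelial cells rose. Of 20 tested, 8 rose and none fell, with a median of 1.86. The keratin pair Krt8 and Krt18 had PrE means of 20.6 ± 20.5 and 13.2 ± 16.3 CPM (SD, n = 5) and VE means of 567 ± 338 and 530 ± 262 CPM (SD, n = 10). Krt8 rose by 4.79 ± 0.80 and Krt18 by 5.32 ± 0.90 (edgeR adjusted p = 0.00109 and 0.00122). Cdh2, N-cadherin, had no count in PrE and was at least 937-fold higher in VE, with 0.685 to 75.9 CPM. Cdh1, E-cadherin, did not pass, with 82.0 and 158 CPM. The tight junction gene Cldn7 rose by 2.62 ± 0.51 (edgeR adjusted p = 0.00326), Epcam by 1.91 ± 0.37 (edgeR adjusted p = 0.00317) and Podxl, an apical sialomucin, by 2.36 ± 0.52 (edgeR adjusted p = 0.00858).

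Imprinted genes, expressed from a single parental copy, were higher in VE. Of 16 tested, 11 rose and none fell, with a median of 2.51, and the summed level went from 577 to 1130 CPM in PrE to 2806 to 4650 CPM in VE, without overlap. H19, a maternally expressed noncoding RNA at chr7:142575529-142578143 (GRCm38, GENCODE vM21), stood at 0.72, 43.3, 10.03, 0.33 and 59.3 CPM in the PrE embryos and at 127, 727 and 1121 CPM as the lowest, median and highest VE sums, a change of 4.81 ± 0.98 (n = 5 and 10, edgeR adjusted p = 0.00465). Above 100 CPM were 4 of 79 PrE and 49 of 53 VE cells. Sgce and Peg10, paternally expressed neighbors at chr6:4674350-4747207 and chr6:4747306-4760517, rose together. Sgce had no count in PrE and 8.22 to 205 CPM in VE, at least 2764-fold higher, and Peg10 rose by 7.40 ± 1.18 (edgeR adjusted p = 0.0007). Mest rose by 6.65 ± 0.98 and Grb10 by 6.81 ± 0.97 (edgeR adjusted p = 0.000302 and 0.000223). Smaller rises were measured for Meg3, Gnas and Peg3, at 1.57, 1.53 and 1.64, and Cdkn1c and Snrpn rose with calls lost in 9 and 11 of 28 alternatives. The growth factor receptor gene Igf2r did not pass, with 88.2 and 115 CPM.

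Metabolic genes split by pathway. In cholesterol synthesis 4 of 20 tested genes fell and none rose, with a median of -1.51. Insig1, the sterol-sensitive brake of the pathway, fell from 246, 95.0, 169, 238 and 245 CPM to 3.44, 19.9 and 71.1 CPM as the lowest, median and highest VE sums, a change of -2.84 ± 0.54 (n = 5 and 10, edgeR adjusted p = 0.00259). The enzymes Fdft1, Fdps and Lss fell, with changes of -2.16, -1.52 and -3.56, calls lost in 3, 4 and 11 of 28 alternatives, while Hmgcs1, near the head of the pathway, did not pass, with a change of -0.19 ± 0.45. Without P1-e3 and P3-e9, 7 of the 20 fell.

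In glucose and lactate handling 4 of 18 tested genes rose and 1 fell. Slc16a1, the monocarboxylate transporter MCT1, stood at 101, 95.7, 72.8, 144 and 156 CPM in the PrE embryos and at 328, 1487 and 1840 CPM as the lowest, median and highest VE sums, a change of 3.59 ± 0.38 (n = 5 and 10, edgeR adjusted p = 1.4e-05). The glucose transporter Slc2a2, typical of liver and gut, had no count in PrE and was at least 1109-fold higher in VE, and Slc2a1 rose by 1.28. Ldhb, a lactate dehydrogenase subunit, rose by 5.88 ± 0.97 (edgeR adjusted p = 0.000989) and Pfkl, a phosphofructokinase, fell by 2.03 ± 0.35 (edgeR adjusted p = 0.00147).

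Of 8 tested genes of retinol handling 3 rose and 1 fell. Beside Rbp4, Cyp26a1, which degrades retinoic acid, rose by 3.64 ± 0.73 (edgeR adjusted p = 0.00409). Aldh1a1, which makes retinoic acid, had 5.79 to 21.05 CPM in PrE and no count in VE. Of 11 genes of iron handling, Trf and the ferritin heavy chain Fth1 rose, Fth1 by 1.18 ± 0.32 with a call lost in 7 of 28 alternatives.

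Housekeeping lists were nearly flat. None of 27 replication genes and none of 40 ribosomal protein genes passed edgeR's test, nor that of DESeq2, and at an unadjusted p under 0.05 stood 2 and 3 of them. Of 26 mitosis genes only Cdc20 fell, in a call lost in 16 of 28 alternatives, and without P1-e3 and P3-e9, 2 fell. Their medians were 0.01, -0.03 and 0.05. Among 11 genes of DNA methylation only Dnmt3a fell, by 1.63, a call lost in 8 of 28. In the lists where edgeR called no gene in a direction, 1 plasma protein, 1 epithelial and 1 iron gene were lower and 3 basement membrane, 2 mitosis, 1 parietal endoderm, 1 cholesterol and 1 DNA methylation gene were higher in VE at an unadjusted p under 0.05. Of these lists, DESeq2 called 1 basement membrane and 1 parietal endoderm gene higher.

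The largest drops lay outside the lists. Fam25c, Cyp4f14, 2410004A20Rik and Tcl1 had PrE means of 266, 165, 120 and 115 CPM and no count in any of the 10 VE sums, so that they were at least 4314-, 2674-, 1943- and 1873-fold lower. In the other cells their means were 262, 4.04, 837 and 101 CPM at E4.5 and 0.49, 0, 0 and 0 CPM at E6.5. Tcl1 encodes a coactivator of the kinase Akt, and Cyp4f14 a fatty acid hydroxylase. Fbp2, Ddr2, Gm13145, Cyp2s1 and Dennd2c fell, with changes of -9.02, -7.14, -6.29, -6.10 and -5.89, and of these Ddr2 encodes a collagen receptor. Their means in the other cells were lower at E6.5 too. They went from 96.7, 20.4, 274, 40.6 and 25.1 CPM to 0, 0.36, 3.60, 0.998 and 2.56 CPM. Of genes known from pluripotent cells Klf5 fell by 4.83 ± 0.78 (edgeR adjusted p = 0.00083), and Zfp42 and Dppa5a had changes of -3.61 and -3.12, the call of Zfp42 lost in 9 of 28 alternatives and Dppa5a with 4388 CPM in VE embryo P3-e9 against a VE median of 170 CPM. Of the largest rises outside the lists, Slc13a4, a sulfate transporter, rose by 11.31 ± 1.54, the factor Sox4 by 9.90 ± 1.15 and the microtubule linker Hook1 by 8.37 ± 0.94 (edgeR adjusted p = 0.000154, 2.76e-05 and 2.15e-05).

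The other cells of the same embryos share stage, dissection and plate with the endoderm, so the change in endoderm was set against the change in those cells, with the embryo as a term. The contrast of endoderm with other cells within a stage is the one the cells were chosen on, and the test bears only on how it differs between stages. Of 12175 genes 157 (1.29%) passed, 49 with the more positive change in endoderm and 108 with the more negative. Of these, 63 had also passed the first test, 51 with the same sign. Leaving out E6.5 embryos P1-e3 and P3-e9 gave 244 and leaving out PrE embryo P2-e4 gave 66.

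Several of the genes above changed in endoderm beyond the other cells. Trf rose in endoderm from 1.60 to 263 CPM, while the other cells had 57.7 CPM at E4.5 and 35.5 CPM at E6.5 (difference 10.16 ± 1.81, edgeR adjusted p = 0.00611). Peg10 and Mest rose further in endoderm, by 5.42 and 4.87. Sparc, P4hb, P4ha2, Plod2, Hspg2, Col4a1, Col4a2 and Lrp2 had more negative changes in endoderm than in the other cells, Lrp2 by -4.09 ± 0.80 (edgeR adjusted p = 0.0115). Apoe and Apoc1, which had not passed between PrE and VE, passed here, and in the other cells Apoe went from 2375 to 560 CPM and Apoc1 from 244 to 19.7 CPM.

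For Krt8 and H19 the sign was the other way. Neither had a count in the other E4.5 cells, and both were present in the other E6.5 cells, at 89.0 and 140 CPM, against 20.6 to 567 CPM and 22.8 to 637 CPM in endoderm, so that the fitted differences of -7.41 and -8.09 depend on the small constant added to 0. The plasma proteins were also detected outside the chosen cells at E6.5, with means of 346 CPM for Apoa1, 384 for Ttr, 100 for Apob and 69.4 for Afp, and 49 of 197 other cells passed 100 CPM of Afp. The source of these counts was not tested.

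**Figure D4:**
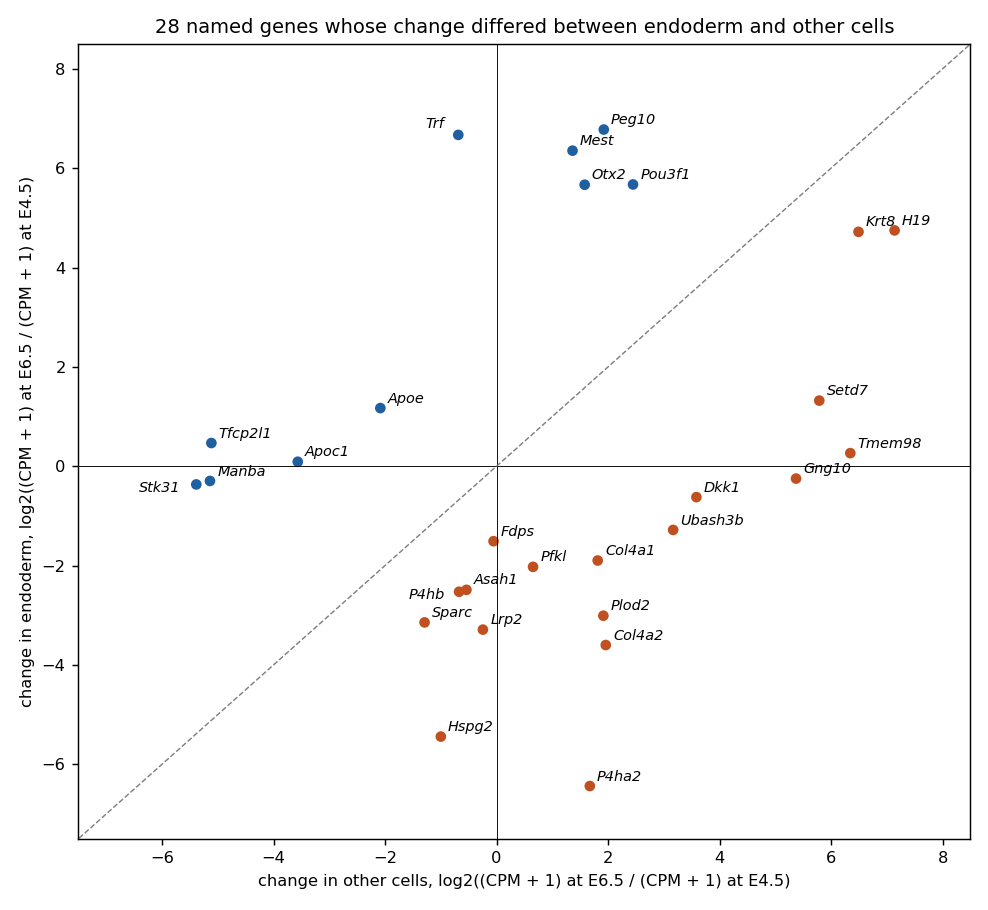
Change from E4.5 to E6.5 in the endoderm against the change in the other cells of the same stages for 28 named genes that passed the test of the difference, both as log2 ratios of mean CPM + 1. Blue points had the more positive change in endoderm and orange points the more negative, and the dashed line marks equal change. Trf lies high on the endoderm axis with little change elsewhere, and Krt8 and H19 rise on both axes.

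A single sum of 5 E5.5 cells labelled as VE, from 1 embryo with 6668780 counts, lay between the stages for some genes and not for others. It held 7857 CPM of Apoa1, 2264 of Ttr, 2024 of Apob and 399 of Rbp4, within or above the E6.5 range, but only 80.3 CPM of Afp, below every E6.5 sum. Sparc and Lrp2 were at 1117 and 772 CPM, above every E6.5 sum and below every PrE sum. Krt8 and H19 were at 754 and 494 CPM, within the E6.5 range, and Pdgfra at 5.39 CPM. With 1 embryo there is no test.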

How the data were processed

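The count table was deposited by the authors as raw read counts per gene and cell, with 24483 gene rows. The submitters' processing notes name Trim Galore 0.4.3, HISAT2 2.0.5 and GRCm38, and the methods of the study name the RNA-seq pipeline of SeqMonk for counting. The rows used here lie on autosomes, so that the X-linked Slc7a3, part of the choice, was not analysed here and the choice used 16 of 17 genes. Members and gene lists were chosen with earlier results of these data known.

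Counts were summed per embryo over at least 3 cells and fitted with edgeR 4.0.16 in R 4.3.3 (TMM factors, filterByExpr, quasi-likelihood test, Benjamini-Hochberg adjustment over all genes tested, log2 limit 1). Levels are CPM with TMM factors, standard errors are the fold change over the square root of F, and folds against groups without counts use 3 counts over the group. A second fit, with embryo as a term, tested endoderm against other cells between stages. DESeq2 1.42.0 was 1 of 29 alternatives to the first fit, and 19 were run for the second. Precision is limited by depth and by 5 and 10 embryos, and limits for zeros cover counting error only. Both fits were tested on simulated data. Python 3.11.15 with pandas 2.3.3, numpy 2.4.6 and matplotlib 3.10.9 was used.

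Named genes were the given markers and the genes of the choice, the 12 largest rises and 12 largest drops without overlap at 50 CPM or more, up to 4 members of each list with the largest change among those that passed, members whose role is described, and the 5 largest differences of each sign in the second fit. Some genes that these rules name are not reported here.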

Additional observations from a re-analysis of the deposited data

Results flagged for a closer look

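Of 173 gene and group combinations with a mean of at least 10 CPM, 26 held an embryo far from the others of its group by Dixon's ratio. The limit used gives about 1 in 20 for normally distributed values, which CPM need not be, and the genes share embryos. The 26 are therefore no measure of an excess over chance. In VE the far embryo was P3-e9 for Apoa4 (2142 CPM), Apoc1 (1331 CPM), Dusp6 (649 CPM), Cldn7 (1635 CPM), Meg3 (737 CPM), Dppa5a (4388 CPM) and Pou3f1 (270 CPM), P3-e7 for Pdgfra (88.1 CPM), Gata6 (123 CPM), Serpinh1 (343 CPM) and Plod2 (191 CPM), and P2-e6 for Sox17 (254 CPM), Hnf4a (186 CPM), Myo7a (97.9 CPM) and Klf5 (39.7 CPM). It was P1-e3 for Snrpn (795 CPM), the E6.75 embryo e1 for Spp2 (239 CPM), and the E6.5 embryo e1 without a plate name for Htra1 (89.0 CPM) and Gng10 (177 CPM). In PrE it was P1-e1 for Fgf5 (82.1 CPM), Lefty1 (351 CPM), Lefty2 (1043 CPM), Fth1 (2085 CPM) and Cdc20 (714 CPM), and P2-e5 for Apom (315 CPM, high) and P4ha2 (45.1 CPM, low).

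For 28 named genes the change from E4.5 to E6.5 in endoderm differed from that in the other cells of the same embryos in edgeR's test. It was larger in endoderm, on the log2 scale, for Trf (10.16), Tfcp2l1 (6.20), Manba (6.14), Stk31 (6.05), Peg10 (5.42), Mest (4.87), Pou3f1 (4.55), Otx2 (4.32), Apoe (3.45) and Apoc1 (2.75). For Tfcp2l1, Manba and Stk31 the means of the other cells were lower at E6.5, as with 165 and 3.80 CPM for Tfcp2l1. It was smaller in endoderm for P4ha2 (-13.66), Setd7 (-12.01), Ubash3b (-10.69), Tmem98 (-10.43), Gng10 (-9.67), H19 (-8.09), Dkk1 (-8.01), Krt8 (-7.41), Col4a2 (-6.95), Plod2 (-5.73), Hspg2 (-5.46), Col4a1 (-4.17), Lrp2 (-4.09), Pfkl (-2.75), Asah1 (-2.43), P4hb (-1.94), Sparc (-1.78) and Fdps (-1.61). Setd7, Ubash3b, Krt8 and H19 had no count in the other E4.5 cells, so that their fitted values depend on the constant added to 0. P4ha2, Tmem98, Gng10, Dkk1 and Col4a2 were near 0 in those cells, with means of 0.28, 0.035, 1.34, 0.83 and 1.36 CPM. Their fitted values rest on few counts there.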

How the results depend on the processing

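The count of 715 genes moved by over 1.5 times with DESeq2 (1220) and with a test against the log2 limit (307), and the count of 157 for the difference moved with no embryo term (262), with plates P1 to P3 only (72), with no filter on low counts (248) and, chosen after seeing the data, without E6.5 embryos P1-e3 and P3-e9 (244). Leaving out an embryo at a time gave 448 to 836 and 66 to 213. In the difference test all 5 PrE embryos moved the count past that limit (77 without P1-e1, 79 without P1-e2, 79 without P2-e3, 66 without P2-e4 and 92 without P2-e5). The share of calls that were higher in VE was 55.52% and fell to 41.76% with sums of at least 5 cells, 39.27% without a filter, 46.06% with plate name as a term, 49.51% with the test against the limit and 48.79% without PrE embryo P1-e2. Of 110 named genes that passed, 71 passed in all 28 alternatives, 37 were lost in some and 2 were too low to be tested in some, and of 28 differences 12 held in all 19. Apoc1, which did not pass, was lower in VE with DESeq2 (-1.09, DESeq2 adjusted p = 0.0354) and without VE embryo P3-e9 (-1.14, edgeR adjusted p = 0.0454), with -1.14 to 0.30 on leaving out an embryo at a time. The causes were not tested. No paired analysis was possible because the embryos of the 2 stages are different animals.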

Other observations

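Other secreted and absorptive genes, chosen after their values were seen, were higher in VE. Spink3, a trypsin inhibitor, rose from 136 to 924 CPM in the PrE sums to 1610 to 10389 CPM in VE, a log2 change of 3.89 ± 0.48 (edgeR adjusted p = 5.02e-05). The membrane carbonic anhydrase Car4 rose from 159 ± 106 CPM (SD, n = 5) to 4037 ± 1662 CPM (SD, n = 10). The selenoproteins Gpx3 and Sepp1 rose by 3.29 and 6.91, the metallothioneins Mt1 and Mt2 by 2.78 and 3.35, Igfbp2, which binds insulin-like growth factors, by 4.12, and the sialomucin Pdpn by 5.08.

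Some genes of the endoplasmic reticulum, chosen after their values were seen and because they fell, are given without a list or a test of the group. The translocon subunit Sec61a1 stood at 524 to 923 CPM in PrE and 34.7 to 380 CPM in VE, the oligosaccharyltransferase subunit Rpn1 at 465 to 704 and 31.5 to 266 CPM, and Ckap4, a protein of reticulum sheets, at 583 to 997 and 56.9 to 496 CPM, without overlap. Their changes were -1.93, -1.76 and -2.35. Herpud1, of reticulum-associated degradation, fell by 2.81.

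The endoplasmic reticulum stress element, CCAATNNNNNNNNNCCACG on either strand, is known from chaperone promoters and stood in 37 of 32851 RefSeq windows (0.113%). Of the 15 tested genes with it, 3 fell (Syvn1, Creld2 and Calr, with changes of -3.12, -1.94 and -1.19) and none rose, with a median of -0.79 against 0.08 over 7377 genes with a window. Of those 7377 genes 209 fell and 283 rose. Hspa5, Dnajc3, Pdia6 and Hsp90b1, genes of the reticulum among the same 15, did not pass, with -0.72, -0.79, -0.71 and -0.31. Canx, also among the 15, did not pass either, with 0.37. Calr and Creld2 are shown on GRCm38.p6, up to 250 bases before the start along the gene, at chr8:84846935-84847181 on the minus strand and chr15:88819396-88819645 on the plus strand, with the ends of the element, which lies on the opposite strand, in capitals.
Calr: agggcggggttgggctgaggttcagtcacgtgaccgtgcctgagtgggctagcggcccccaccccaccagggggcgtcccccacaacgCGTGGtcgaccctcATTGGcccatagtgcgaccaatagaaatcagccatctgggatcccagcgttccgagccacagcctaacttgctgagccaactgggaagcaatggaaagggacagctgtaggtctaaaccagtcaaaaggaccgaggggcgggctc
Creld2: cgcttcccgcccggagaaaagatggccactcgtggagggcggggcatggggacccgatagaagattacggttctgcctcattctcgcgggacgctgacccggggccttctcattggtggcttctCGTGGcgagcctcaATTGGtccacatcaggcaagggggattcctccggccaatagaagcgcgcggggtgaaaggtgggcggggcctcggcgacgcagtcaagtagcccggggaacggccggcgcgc
This was noticed in the same data and is a description without a test.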
